A study of Saccharomyces cerevisiae with 6 samples.

Results

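A set of 10 genes that encode the enzymes and allied proteins which reshape glucan in the cell wall of budding yeast was followed through an experiment on RNA self-assembly. They were taken by identifier from a table of 6603 open reading frames: GAS1 (YMR307W), GAS3 (YMR215W), GAS5 (YOL030W), CRH1 (YGR189C), UTR2 (YEL040W), BGL2 (YGR282C), SCW4 (YGR279C), SCW10 (YMR305C), EXG1 (YLR300W) and ECM33 (YBR078W). All 10 were in the table, and the rule that picks them uses identifiers and no measured value, though earlier results of these data were known when the set was drawn up. RNA came from untreated log-phase cultures of Saccharomyces cerevisiae BY4741 by phenol and chloroform extraction, and was then left to assemble in a test tube. One group of 3 libraries holds pelleted assemblies, for which RNA at 150 µg/mL stood in 10% polyethylene glycol with 150 mM NaCl and 1 mM MgCl2. The other group of 3 libraries holds total RNA of the same strain. Both were depleted of ribosomal RNA with Ribo-Zero before sequencing. The labels place the total RNA in the same salt and polyethylene glycol mixture too, and the series text names it only as the comparison, so its handling is not settled. Paired-end libraries of both were made with the Nextera kit.

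The yeast wall is a mesh of β-1,3-glucan to which β-1,6-glucan, chitin and mannoproteins are joined. New glucan chains leave the plasma membrane as linear polymers, and enzymes outside the cell then cut, lengthen, branch and cross-link them. The GAS proteins are glucanosyltransferases held by a glycosylphosphatidylinositol (GPI) anchor, which split a β-1,3-glucan chain and join part of it to another. Crh1 and Utr2 transfer chitin to glucan. Bgl2 and its relatives Scw4 and Scw10 are glucanase-like proteins of the wall, and Exg1 is the main secreted exo-β-1,3-glucanase. Many such proteins carry a stretch rich in serine and threonine that is O-mannosylated.

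Depth was 8749240 to 10531980 reads per library, and each of the 10 genes had between 1568 and 26528 reads in every library. Values are reads divided by the authors' size factor for the library, which centres the typical gene, so a difference is relative to the other mRNAs and says nothing of the amount of RNA. No label states whether the libraries of a group began as different cultures. The p-values therefore cover the spread among these libraries alone, which may be technical. The first and second total RNA libraries (1 and 2) resembled each other far more than any other pair of a group did (chi-square over degrees of freedom of 1.56, and 11.7 to 57.5 elsewhere) and still differed by more than counting noise. Assembly library 3 had the highest assembly value for 9 of the 10 genes, and total RNA library 3 the highest total RNA value for 7. The genes do not overlap any other RefSeq gene of build R64, and none has another gene with at least 95% identity over 50% of its coding sequence. The strand setting of the counting is not stated by the labels.

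The mRNAs of this group parted into those that stood well above the typical gene in the assemblies and those that did not. UTR2, GAS5, CRH1, SCW4, SCW10 and ECM33 rose by 2.11-fold to 4.13-fold, BGL2 rose by 1.35-fold, and EXG1, GAS1 and GAS3 did not pass the test (limma on log2(value + 1), Benjamini-Hochberg adjustment over 5670 genes, threshold 0.05). Thus 7 of 10 were called higher and 0 lower, where 41.3% of all tested genes were called higher and 40.8% lower. Called and at least 2-fold higher were 6 of 10, against 26.3% of all tested genes. The median log2 fold change of the 10 was 1.22, and it was 0.99 to 1.52 when single assembly libraries were set against the mean of total RNA. Over all tested genes the median was 0.017. In 7 of the 10 all assembly values lay above all total RNA values, as they did in 42.7% of tested genes. Most of the 10 mRNAs carry a stretch dense in serine codons, among those that changed most and those that changed least. The densest stretches of such genes are shown first, as a description.

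The coding strand of the 50 codons richest in serine is printed for 3 genes with a large change (UTR2, GAS5, CRH1), for GAS1 and GAS3, which have such a stretch but no called change, and for EXG1, which has none. Coordinates and bases are RefSeq's for build R64, each line runs 5′ to 3′ in frame, and capitals mark serine codons.
UTR2 chrV:79112-79261 (forward strand): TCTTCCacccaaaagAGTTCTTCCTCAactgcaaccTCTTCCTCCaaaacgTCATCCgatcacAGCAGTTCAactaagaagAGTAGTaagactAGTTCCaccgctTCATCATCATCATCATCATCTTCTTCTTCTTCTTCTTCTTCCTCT
GAS5 chrXV:269399-269548 (forward strand): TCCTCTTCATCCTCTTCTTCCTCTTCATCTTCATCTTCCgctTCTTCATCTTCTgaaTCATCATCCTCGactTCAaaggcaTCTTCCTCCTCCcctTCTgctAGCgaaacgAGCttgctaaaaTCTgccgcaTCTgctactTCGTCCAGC
CRH1 chrVII:877137-877286 (reverse strand): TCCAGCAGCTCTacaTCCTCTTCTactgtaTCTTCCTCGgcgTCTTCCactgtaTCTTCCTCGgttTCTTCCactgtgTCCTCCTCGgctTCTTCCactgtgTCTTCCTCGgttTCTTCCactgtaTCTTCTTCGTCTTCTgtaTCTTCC
GAS1 chrXIII:888428-888577 (forward strand): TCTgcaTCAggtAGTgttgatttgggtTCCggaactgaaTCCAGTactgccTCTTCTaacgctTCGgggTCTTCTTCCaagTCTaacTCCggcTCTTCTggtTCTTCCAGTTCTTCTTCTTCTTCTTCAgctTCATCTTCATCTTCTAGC
GAS3 chrXIII:698164-698313 (forward strand): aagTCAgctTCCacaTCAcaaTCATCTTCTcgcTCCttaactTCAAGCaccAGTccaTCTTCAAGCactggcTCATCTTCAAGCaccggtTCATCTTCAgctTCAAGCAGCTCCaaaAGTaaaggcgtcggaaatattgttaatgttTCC
EXG1 chrXII:728955-729104 (forward strand): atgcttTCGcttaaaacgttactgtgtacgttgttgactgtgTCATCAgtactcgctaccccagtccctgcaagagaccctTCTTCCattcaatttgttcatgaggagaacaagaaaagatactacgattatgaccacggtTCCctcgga
Of the 50 codons, 34 encoded serine in GAS5 and in CRH1, 33 in UTR2, 31 in GAS1, 26 in GAS3 and 6 in EXG1. The stretches of the GAS and CRH genes lie towards the end of the coding sequence, from codon 303 in CRH1, 354 in UTR2, 405 in GAS5, 457 in GAS3 and 476 in GAS1.

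**Figure D1:**
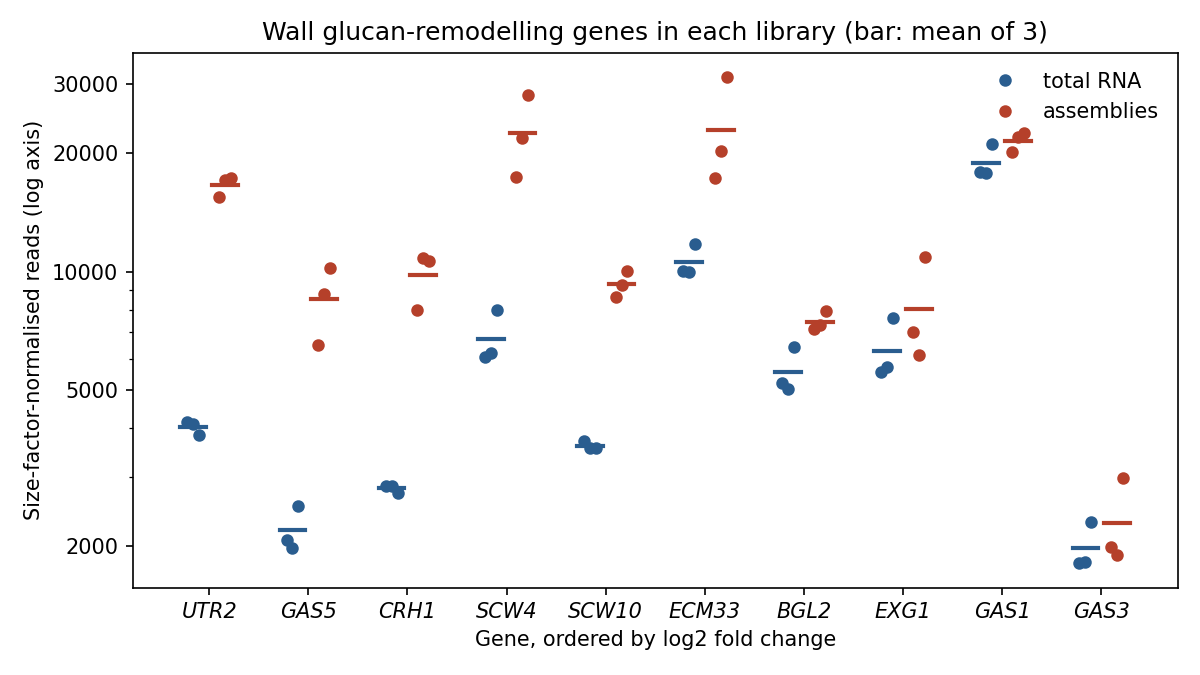
Size-factor-normalised reads (log axis) of the 10 genes in each of 3 total RNA and 3 assembly libraries, with bars at the group means. From UTR2 to BGL2 the groups do not overlap; in EXG1, GAS1 and GAS3 they do.

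UTR2 lies on chromosome V at 78053 to 79456 (forward strand, coding length 1404 nt), and its protein is one of the CRH transglycosylases that link chitin to glucan. Assembly libraries 1, 2 and 3 held 15493, 17067 and 17288 normalised reads of it, while total RNA libraries 1, 2 and 3 held 4133, 4087 and 3827. Both groups were tight, and the lowest assembly value was far above the highest total RNA value. The means were 16616 ± 979 and 4016 ± 165 (SD, n = 3 each), a log2 fold change of 2.05 (SE 0.12; limma, adjusted p = 3.17e-07), which placed UTR2 at rank 144 from the top of 5670 tested genes. CRH1, whose product does the same work, lies on chromosome VII at 876669 to 878192 (reverse strand, 1524 nt). It had 7985, 10811 and 10619 normalised reads in the assembly libraries and 2849, 2839 and 2729 in the total RNA libraries. Assembly library 1 was the lowest of its group and still above every total RNA value. The means were 9805 ± 1579 and 2806 ± 66.9 (SD, n = 3 each), a log2 fold change of 1.79 (SE 0.14; limma, adjusted p = 4.32e-07).

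The GAS genes went different ways. GAS5 (chromosome XV at 268187 to 269641, forward strand, 1455 nt) encodes a glucanosyltransferase of growing cells. It had 6514, 8786 and 10194 normalised reads in the assembly libraries and 2067, 1979 and 2528 in the total RNA libraries. Every assembly value was far above every total RNA value. The means were 8498 ± 1857 and 2191 ± 295 (SD, n = 3 each), a log2 fold change of 1.94 (SE 0.17; limma, adjusted p = 7.87e-07). GAS1 (chromosome XIII at 887003 to 888682, forward strand, 1680 nt) encodes the main glucanosyltransferase of vegetative cells, whose loss weakens the wall. Its values were 20114, 22022 and 22599.8 in the assembly libraries and 17895, 17784 and 21113 in the total RNA libraries. Total RNA library 3 reached into the range of the assemblies, so the groups overlapped. The means were 21579 ± 1301 and 18931 ± 1891 (SD, n = 3 each), and the limma fold of 1.14 had a 95% interval of 0.926 to 1.41 (log2 fold change 0.19, SE 0.14, adjusted p = 0.214). GAS3 (chromosome XIII at 696796 to 698370, forward strand, 1575 nt) encodes a putative member of the family. It had 1992, 1898 and 2976 normalised reads in the assembly libraries and 1806, 1815 and 2308 in the total RNA libraries. Library 3 was the highest in both groups, and total RNA library 3 exceeded assembly libraries 1 and 2. With means of 2289 ± 597 and 1976 ± 287 (SD, n = 3 each), the limma fold of 1.14 had a 95% interval of 0.871 to 1.50 (log2 fold change 0.19, SE 0.18, adjusted p = 0.334). Without assembly library 3 its log2 fold change was -0.014.

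Of the glucanase-like wall proteins, SCW4 and SCW10 are close relatives and rose together. SCW4 (chromosome VII at 1048798 to 1049958, reverse strand, 1161 nt) had 17417, 21954 and 28261 normalised reads in the assembly libraries and 6076, 6185 and 7983 in the total RNA libraries. The assembly values were widely spread but all lay far above the highest total RNA value. The means were 22544 ± 5446 and 6748 ± 1071 (SD, n = 3 each), a log2 fold change of 1.72 (SE 0.19; limma, adjusted p = 3.45e-06). SCW10 (chromosome XIII at 879063 to 880232, reverse strand, 1170 nt) had 8603, 9248 and 10043 normalised reads in the assembly libraries and 3701, 3543 and 3556 in the total RNA libraries. Its groups were tight and far apart, with means of 9298 ± 721 and 3599.8 ± 88.1 (SD, n = 3 each) and a log2 fold change of 1.37 (SE 0.12; limma, adjusted p = 8.88e-07). BGL2 (chromosome VII at 1057783 to 1058724, reverse strand, 942 nt) encodes an abundant glucanase and glucanosyltransferase of the wall and has the shortest coding sequence of the 10. It had 7149.7, 7309.7 and 7919 normalised reads in the assembly libraries and 5215, 5008 and 6422 in the total RNA libraries. The groups did not overlap, though total RNA library 3 came close to the assemblies. The means were 7459 ± 406 and 5548 ± 764 (SD, n = 3 each), a log2 fold change of 0.43 (SE 0.14; limma, adjusted p = 0.0112). This call was lost without total RNA library 1 (limma, adjusted p = 0.0685), without total RNA library 2 (0.0828) and when those libraries were averaged and counted as 1 sample (0.0742), and with equal library totals the log2 fold change was -0.13.

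EXG1 and ECM33 stand outside these families. EXG1 (chromosome XII at 728955 to 730301, forward strand, 1347 nt) had 7002, 6145 and 10902 normalised reads in the assembly libraries and 5547, 5706 and 7622 in the total RNA libraries. Library 3 was highest in both groups and the groups overlapped. The means were 8017 ± 2535 and 6292 ± 1155 (SD, n = 3 each), and the limma fold of 1.25 had a 95% interval of 0.912 to 1.71 (log2 fold change 0.32, SE 0.21, adjusted p = 0.169). ECM33 (chromosome II at 393123 to 394742, forward strand) encodes a GPI-anchored protein of no known enzyme activity that is needed for a sound wall, and it is the one gene of the 10 whose coding sequence of 1290 nt is annotated in 2 parts. It had 17352, 20331 and 31269 normalised reads in the assembly libraries and 10040.1, 9969 and 11772 in the total RNA libraries. Assembly library 3 stood well above the other assemblies, and all of them were above all total RNA libraries. The means were 22984 ± 7328 and 10594 ± 1021 (SD, n = 3 each), a log2 fold change of 1.08 (SE 0.20; limma, adjusted p = 0.000307), which was 0.83 without assembly library 3. The authors' deposited table gives a DESeq p-value for 6 of the 10, from 1.14e-27 for UTR2 to 0.00520 for ECM33, and text stands in its place for GAS1, GAS3, BGL2 and EXG1. Whether those p-values were adjusted for multiple testing is not stated there.

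Levels of different genes were compared as normalised reads per kb of coding sequence. In total RNA GAS1 had the highest level (11268 ± 1125 per kb, SD, n = 3), followed by ECM33 (8212 ± 791), BGL2 (5890 ± 811), SCW4 (5812 ± 922), EXG1 (4671 ± 857), SCW10 (3077 ± 75.3), UTR2 (2860 ± 118), CRH1 (1841 ± 43.9), GAS5 (1506 ± 203) and GAS3 (1255 ± 182). Neighbours in that order whose ranges over libraries overlapped were BGL2 and SCW4, SCW4 and EXG1, and GAS5 and GAS3. In assemblies SCW4 (19418 ± 4691 per kb, SD, n = 3) and ECM33 (17817 ± 5681) stood before GAS1 (12844 ± 774) and UTR2 (11835 ± 697), with overlapping ranges from each to the next. UTR2 thus moved from place 7 to place 4. SCW10 (7947 ± 616) and BGL2 (7919 ± 431) came next and overlapped, then CRH1 (6434 ± 1036), EXG1 (5951 ± 1882) and GAS5 (5841 ± 1276), which overlapped from each to the next, and GAS3 was last (1453 ± 379). The 10 genes together took 1.03%, 1.03% and 1.22% of reads in the assembly libraries and 0.764%, 0.764% and 0.841% in the total RNA libraries.

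**Figure D2:**
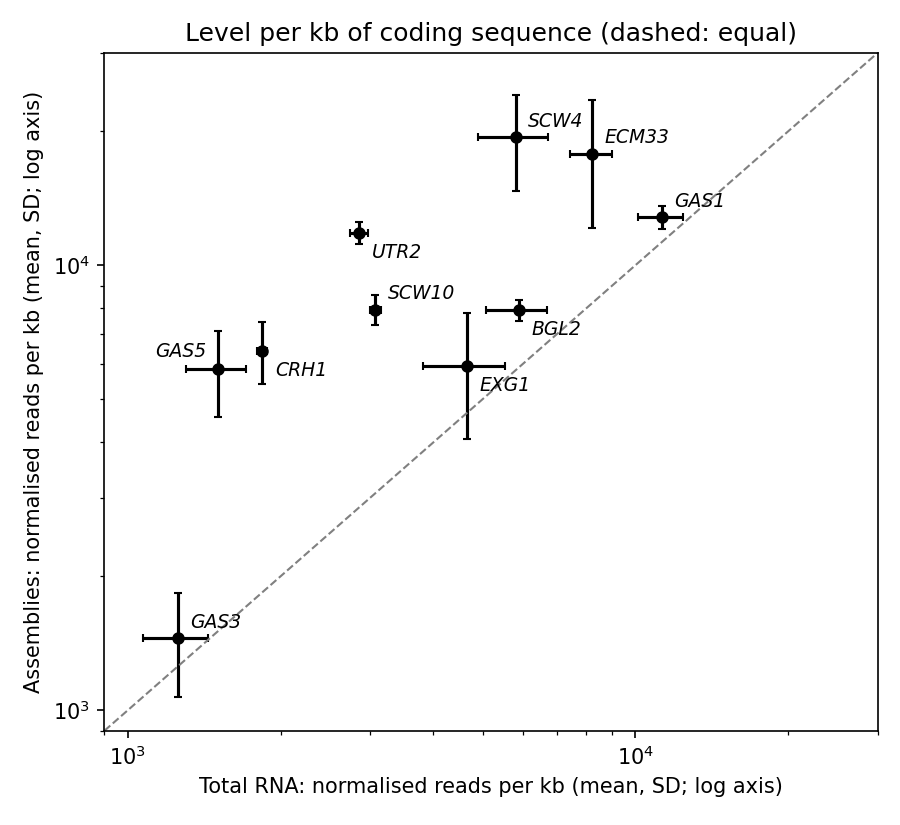
Level per kb of coding sequence in assemblies against total RNA (mean and SD of 3 libraries, log axes) with a dashed line of equal levels. GAS1, GAS3 and EXG1 lie near the line and UTR2, GAS5 and CRH1 furthest above it.

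Ratios between relatives within a library hardly depend on the size factors, and 7 pairs within families were compared. The log2 ratio of GAS1 to GAS5 was 1.63, 1.33 and 1.15 across assembly libraries 1, 2 and 3, while total RNA gave 3.11, 3.17 and 3.06. GAS1 thus had more reads than GAS5 in every library, and the ratio in each assembly library was below that in every total RNA library. The ratio was 3.36-fold lower in assemblies, and that of GAS3 to GAS5 was 3.36-fold lower too. Between GAS1 and GAS3 the assembly mean of the log2 ratio was 3.27 ± 0.31 and the total RNA mean 3.26 ± 0.062 (SD, n = 3 each; exact permutation test, 2-sided, p = 1), a difference below the spread between libraries. The ratio of BGL2 to SCW4 was 2.44-fold lower in assemblies and that of BGL2 to SCW10 was 1.91-fold lower, with a log2 ratio to SCW10 of -0.32 ± 0.043 against 0.62 ± 0.21 (SD, n = 3 each). The pairs whose members rose together moved less: UTR2 to CRH1 had a log2 ratio of 0.77 ± 0.16 in assemblies and 0.52 ± 0.026 in total RNA, without overlap, and SCW4 to SCW10 had 1.25 ± 0.24 and 0.90 ± 0.24, with overlap (SD, n = 3 each). In the exact permutation test, 2-sided, 5 pairs gave p = 0.1, the smallest that 3 libraries against 3 allow, or 0.14 after adjustment over the 7 pairs, so none could pass 0.05. SCW4 to SCW10 gave p = 0.2 in the same exact test. SCW4 and SCW10 have 67.9% identical bases over 1148 aligned positions and a longest shared run of 32 bases, and in the other 6 pairs the longest shared run was 10 to 16 bases.

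**Figure D3:**
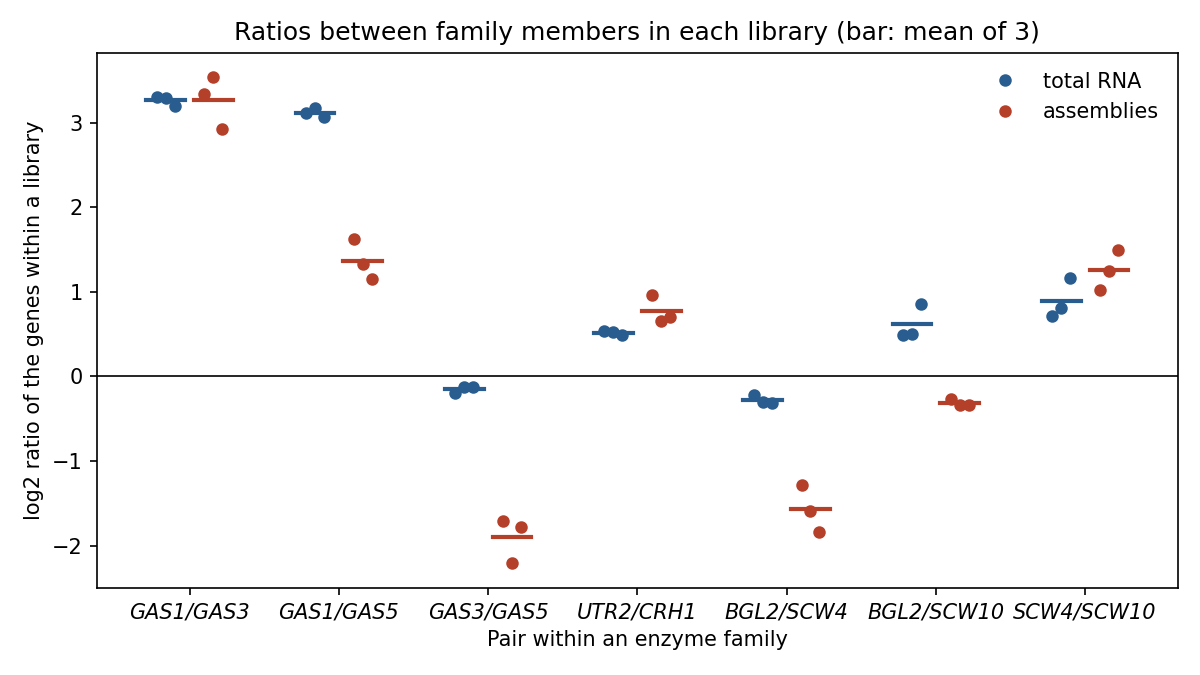
log2 ratio between members of a family within each library, with bars at the means of 3 libraries per group. The ratios of GAS1 and GAS3 to GAS5 and of BGL2 to SCW4 and SCW10 are lower in assemblies, that of SCW4 to SCW10 overlaps between the groups, and that of GAS1 to GAS3 is alike in both groups.

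Long mRNAs stood higher in these assemblies (Spearman's rho between coding length and log2 fold change 0.68 across 5502 genes, a description), so each gene was also read after coding length and GC content had been fitted out of the nuclear protein-coding genes tested. Their coding lengths, 942 to 1680 nt, lie around the median of 1248 nt. After that fit 7 of the 10 were called higher and 1 lower (limma, adjusted p threshold 0.05), where 34.1% of genes were called higher and 35.3% lower. The median log2 fold change of the 10 was 1.21, against -0.015 over all genes so fitted. UTR2 (1.89, SE 0.075), GAS5 (1.67, SE 0.15), SCW4 (1.50, SE 0.17), CRH1 (1.37, SE 0.10), SCW10 (1.33, SE 0.083) and ECM33 (1.08, SE 0.20) remained higher. BGL2 had 0.81 (SE 0.10; limma, adjusted p = 0.000144), more than before the fit. GAS1, the longest of the 10, had a log2 fold change of -0.28 after the fit (SE 0.081; limma, adjusted p = 0.0121), against 0.19 before it. EXG1 (0.26; limma, adjusted p = 0.287) and GAS3 (-0.038, adjusted p = 0.850) did not pass. Scaling every library to the same total moved the median of all genes by -0.56 on the log2 scale (1584 genes higher and 3045 lower, against 2342 and 2316 with the deposited scaling), and it gave GAS1 and GAS3 -0.38 each, EXG1 -0.25 and BGL2 -0.13, which are all above that shifted median. Since that scaling moves every gene down alike, the signs of these 4 say nothing of their place among other genes. GAS1 and GAS3 were called lower with it (limma, adjusted p = 0.00680 and 0.0467). Quantile normalisation moved the median of all genes by 0.070 and also gave lower calls for GAS1 (-0.37) and GAS3 (-0.55) (limma, adjusted p = 0.00817 and 0.00477). BGL2 (-0.12) and EXG1 (-0.23) were then below 0 and not called.

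**Figure D4:**
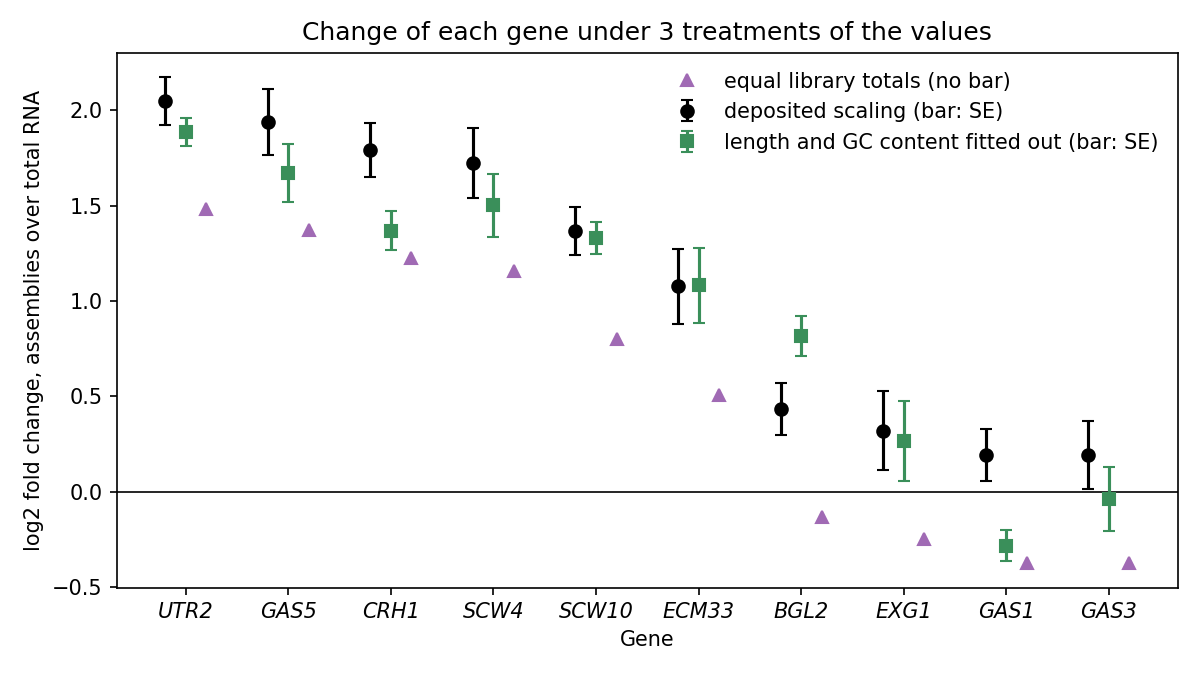
log2 fold change of each gene (assemblies over total RNA) with the deposited scaling, after coding length and GC were allowed for, and with equal library totals. From UTR2 to ECM33 every value is above 0, and for BGL2, EXG1, GAS1 and GAS3 the sign depends on the treatment of the values.

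What the coding sequences share was examined next. All 10 had more C and more T and less A than the median tested gene, with 19.7% (EXG1) to 26.1% C (SCW4) against a median of 18.8%, and 23.7% (ECM33) to 29.8% A (GAS3) against 32.7%. Serine codons made up 24.3% of codons in CRH1, 19.8% in ECM33, 18.4% in UTR2, 17.1% in GAS5, 16.2% in SCW10, 14.8% in SCW4, 14.7% in GAS3 and in GAS1, 11.5% in BGL2 and 7.14% in EXG1, where the median gene had 8.19%. The densest 50 codons held 24 serine codons in SCW4, 25 in ECM33, 26 in SCW10 and 9 in BGL2, beside the numbers given with the printed stretches, and the median gene had 8. In SCW4 and SCW10 the stretch lies near the start, from codons 73 and 83. C made up 38.0% of that stretch in SCW4, 37.3% in GAS5, 36.7% in SCW10, 36.0% in CRH1, 33.3% in UTR2, 32.0% in ECM33, 30.0% in GAS3 and 28.7% in GAS1. The densest 50 codons of EXG1 had 25.3% C, and those of BGL2, which was called higher, had 20.7%.

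Across the 10 genes, Spearman's rho with the log2 fold change was 0.70 for the percentage of serine codons and 0.58 for the percentage of C. It was 0.53 for serine codons in the densest 50, -0.19 for coding length and -0.079 for the mean level. These are descriptions over 10 genes that share all their libraries, with features chosen after the values were known. Over 5502 tested genes rho was 0.34 for the percentage of serine codons, 0.26 for C, 0.68 for coding length and 0.43 for the mean level. For serine codons in the densest 50 it was 0.53 over 5478 genes. With coding length and GC fitted out of the log2 fold change, that rho was 0.21. It was then 0.25 for the percentage of serine codons, 0.22 for C, 0.049 for coding length and 0.071 for the mean level. A cutoff of at least 24 serine codons in 50 was taken from SCW4, the lowest of the 10 with EXG1 and BGL2 set aside. So 8 of the 10 met it by construction. Of 5478 nuclear genes long enough, 42 others met it as well. Of those 42, 38 were called higher, 1 lower and 3 not (limma). That is 90.5% higher and 2.38% lower, where all tested genes had 41.3% and 40.8%. The median log2 fold change of the 42 was 1.89. Once coding length and GC were allowed for, 28 of the 42 were called higher and 2 lower, with a median of 0.55. All genes so fitted were 34.1% higher and 35.3% lower. The median coding length of the 42 was 1744.5 nt, above that of all tested genes. GAS1 and GAS3 have dense stretches and EXG1 and BGL2 do not, and no one feature orders the 10.

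**Figure D5:**
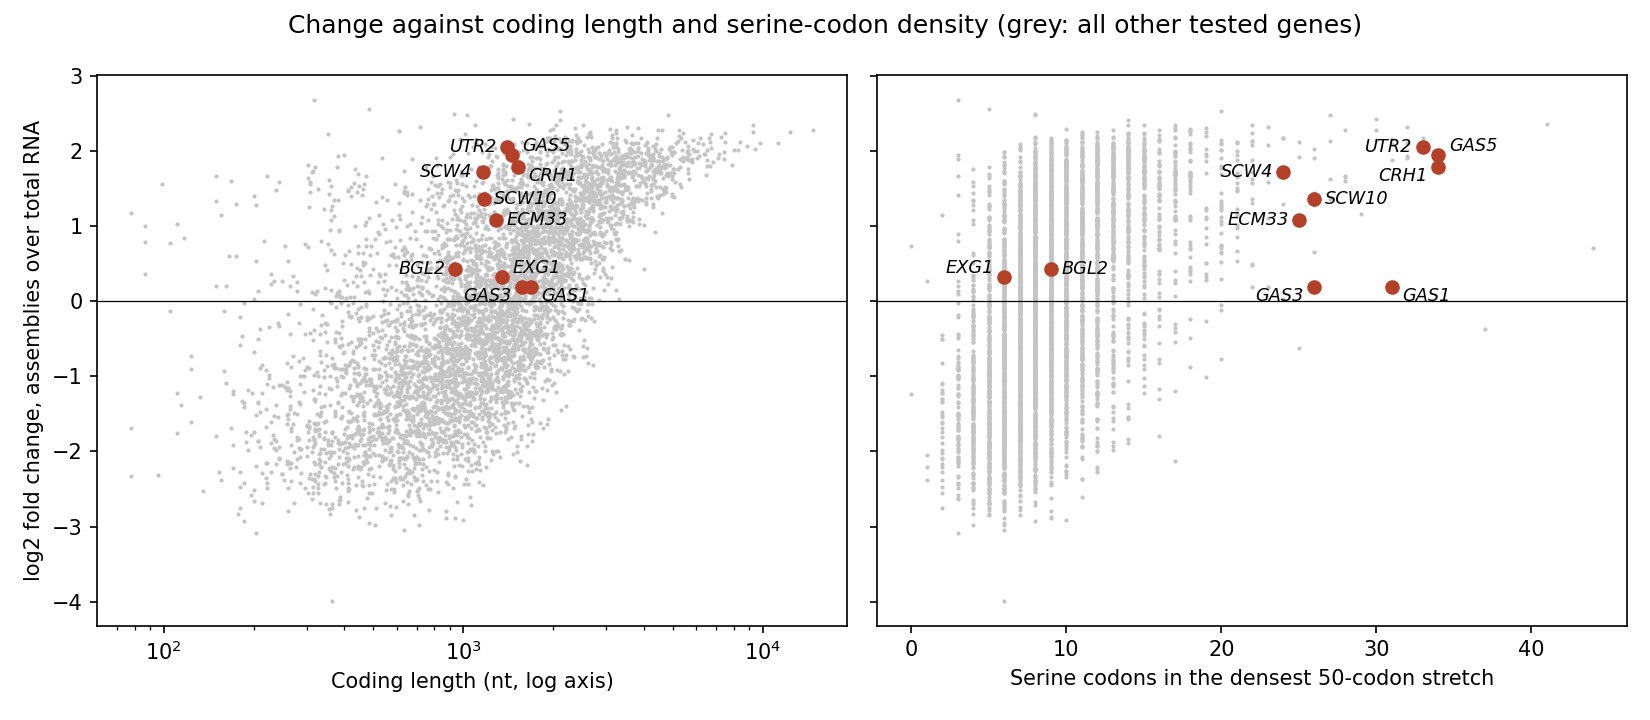
log2 fold change (assemblies over total RNA) against coding length (left, log axis) and against the number of serine codons in the densest 50 (right), for the 10 genes (red, named) and the other tested nuclear protein-coding genes (grey). At lengths from 942 to 1680 nt the 10 span log2 fold changes from 0.19 to 2.05, and GAS1 and GAS3 are low among genes with at least 24 serine codons.

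Relatives of these genes that are used at other times or places, and the endoglucanases listed with them, were mostly higher as well. The list held 11 other genes, of which DSE4 and ACF2 are endoglucanases of a separate family. Of the 11, 8 reached the minimum mean of 10 normalised reads. Of these, 7 were called higher and 0 lower (limma, median log2 fold change 1.23), or 5 higher and 0 lower after length and GC were allowed for. Among all tested genes 41.3% were higher and 40.8% lower, or 34.1% and 35.3% with length and GC allowed for. SCW11, a glucanase-like protein of daughter cells, had a mean of 8032 ± 1189 normalised reads among assemblies, against 1844 ± 41.5 for total RNA (SD, n = 3 each; log2 fold change 2.11). GAS2, a glucanosyltransferase of spore wall formation, had 507.8 ± 82.7 and 132.4 ± 13.8 (SD, n = 3 each; log2 fold change 1.92). DSE4, an endoglucanase of daughter cells (1.69), EXG2, an exoglucanase with a GPI anchor (1.27), CRR1, the CRH-family protein of spores (1.19), ACF2, an endoglucanase inside the cell (1.11), and PST1, a relative of ECM33 (0.97), were higher too. GAS4, SPS2 and SPS22, all known from sporulation, stayed below that minimum and had the lower mean in assemblies. Their mean normalised reads were 4.02 ± 1.87 in assemblies against 15.4 ± 6.29 in total RNA for GAS4, 2.82 ± 3.07 against 14.8 ± 10.8 for SPS2, and 1.20 ± 0.0209 against 5.81 ± 4.05 for SPS22 (SD, n = 3 each). These differences were not tested. SPR1, the exoglucanase of sporulation, had 0.37 (limma, adjusted p = 0.260). Once coding length and GC were allowed for, DSE4 and ACF2 were no longer called (0.15 each; limma, adjusted p = 0.120 and 0.122).

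Genes of the steps before and beside glucan remodelling were taken as 4 further lists, whose counts stand against 41.3% higher and 40.8% lower among all tested genes, or 34.1% and 35.3% with coding length and GC allowed for. Of 16 genes of β-glucan synthesis, 10 (62.5%) were higher and 6 (37.5%) lower, with a median log2 fold change of 0.88 that became -0.058 with length and GC allowed for, when 3 were higher and 5 lower. FKS1, the main glucan synthase and the list's highest level per kb, had 1.76, but after that fit it was lower (-0.26; limma, adjusted p = 0.00760). FKS3, a relative of FKS1, was highest (2.01) and lost its call after the fit (0.049). ROT1, a chaperone of the endoplasmic reticulum, was lowest (-2.26) and stayed lower (-1.42). Of 11 genes of chitin synthesis and turnover 9 were tested, 7 (77.8%) were higher and 1 (11.1%) lower (median log2 fold change 0.97). After the fit 1 was higher and 2 lower (median log2 fold change -0.059). CHS3, the synthase of most wall chitin, was highest (1.52) and lost its call after the fit (-0.10; limma, adjusted p = 0.256). CHS7, which helps Chs3 leave the endoplasmic reticulum, was lowest (-2.10) and stayed lower (-1.50). CTS1, the chitinase of cell separation, had the highest level per kb and a log2 fold change of 1.45, or 1.01 after the fit. The chitin deacetylase genes CDA1 and CDA2 were under the minimum and not tested. Of 16 structural wall mannoproteins 15 were tested, 11 (73.3%) were higher and 2 (13.3%) lower (median log2 fold change 1.36). After the fit 12 were higher and 1 lower (median log2 fold change 1.59). PIR1 was highest (2.48, and 2.52 after the fit), and CCW12, the most abundant per kb, was lowest (-0.85, and -0.63 after the fit). Of 7 genes that attach GPI anchors or pass GPI proteins to the wall, 2 (28.6%) were higher and 4 (57.1%) lower (median log2 fold change -0.51). After the fit 1 was higher and 3 lower (median log2 fold change -0.14). GAB1, a subunit of the GPI transamidase, was highest (0.97, and 1.53 after the fit), and DFG5, a putative transglycosidase, was lowest (-0.94, and -0.97 after the fit). GPI16, another subunit, had the highest level per kb and 0.92, and lost its call after the fit (0.052; limma, adjusted p = 0.532). The lists describe these libraries and were not tested against each other. Similar copies were searched for the 10 genes alone, so reads shared among relatives in these lists are possible.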

How the data were processed

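The 6 libraries were grouped by their titles, 3 of assemblies and 3 of total RNA. The submitters' processing notes name build R64, DESeq 1.22.1, HTSeq, Bowtie 0.12.7, Trimmomatic 0.32 and FastQC. Multi-mapping, strand and annotation settings are not stated by the labels. For each open reading frame the deposited table holds, per the file headers, a normalised read signal in every library. It also holds the authors' group means, the ratio (fold) between them and DESeq p-values, the highest listed being 0.00995. All nonzero values (100% in each library) came out as whole reads within 0.01 reads, which gave the reads back. Depth was 8749240 to 10531980 reads.

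For such normalised values the test was limma 3.58.1 (R 4.3.3, trend) on log2(value + 1) over 5670 genes with a mean of at least 10, with no covariate. Fold changes are on that scale, which understates those of low genes. Alternatives were pseudocounts of 0.5 and 10, no filter, equal totals, quantile normalisation, natural splines (5 degrees of freedom) for length and GC content, edgeR 4.0.16 and DESeq2 1.42.0 on recovered reads, the replicate block, averaging of total RNA libraries 1 and 2, and leaving out each library. The limma step was also run on simulated counts with far fewer changed genes than here and an even spread, which checks the code and not these calls. Single ratios used an exact permutation test (SciPy 1.17.1), alignments Biopython 1.88 and similarity searches BLAST+ 2.17.0. RefSeq names matched 5916 of 6603 identifiers. The 10 genes, the lists and the tests were chosen with earlier results of these data known, and the sequence features after the values were seen. All 10 genes are named, and from each list the highest and lowest called member and the one with the highest level per kb. In the list of relatives and endoglucanases all genes are named.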

Additional observations from a re-analysis of the deposited data

How the results depend on the processing

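UTR2, GAS5, CRH1, SCW4, SCW10 and ECM33 kept their direction and their call under all 16 alternatives. Members called higher numbered 6 or 7 throughout. With equal library totals 2 members were lower (GAS1 -0.38 and GAS3 -0.38 on the log2 scale), BGL2 and EXG1 turned to -0.13 and -0.25, and the median of the 10 was 0.65. Quantile normalisation also gave 2 lower members (GAS1 -0.37, GAS3 -0.55), with BGL2 at -0.12, EXG1 at -0.23 and a median of 0.65. Equal totals moved the median of all genes by -0.56, and quantile normalisation by 0.070. With length and GC content fitted out 1 member was lower (GAS1 -0.28) and GAS3 was -0.038. Of the 55 other wall genes tested, 22 were then higher and 11 lower, in place of 37 and 13. All genes so fitted were 34.1% higher and 35.3% lower, in place of 41.3% and 40.8%. The cause of these changes was not tested. Leaving out each library in turn gave GAS3 -0.014 to 0.31 and the change of the GAS1 to GAS3 log2 ratio -0.13 to 0.17, each around 0. All genes called higher and lower were 2342 and 2316, against 2232 and 2471 with edgeR, 2302 and 2281 with DESeq2, 2406 and 2103 with quantile normalisation and 1584 and 3045 with equal totals. Same-numbered libraries were not shown to be pairs. Correlations of deviations were 0.078, 0.17 and 0.28 between libraries of the same number and -0.26 to 0.22 between different numbers. With the replicate block 2375 genes were higher and 2350 lower, with 7 members higher and 0 lower. With 3 libraries per group and at least 1568 reads of every member in a library, the spread between libraries and not counting error limits the precision.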
